A study of Mus musculus with 18 samples.

Results

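The 10 genes described here encode the sensors of foreign or misplaced nucleic acid that lie upstream of interferon, and the proteins that carry their signal. They were chosen by symbol, with earlier results of these data known. All 10 of 10 were present in both count tables, each of which lists 24421 gene symbols. In the order of their roles they are Ddx58, Ifih1 and Dhx58, the RIG-I-like receptors of RNA, Tlr3, the endosomal receptor of double-stranded RNA, Zbp1, a sensor of left-handed nucleic acid, Mb21d1 and Tmem173, the DNA sensor cGAS and its partner STING, Mavs, the mitochondrial adaptor of the RIG-I-like receptors, and Irf3 and Irf7, the transcription factors that switch on interferon genes. Newer symbols are Rigi for Ddx58, Sting1 for Tmem173 and Cgas for Mb21d1.

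RNA in the cytosol is bound by RIG-I, the product of Ddx58, or by MDA5, the product of Ifih1, which pass the signal to MAVS, while LGP2, the product of Dhx58, modulates both. DNA in the cytosol is bound by cGAS, whose cyclic dinucleotide product activates STING. Both routes lead to phosphorylation of IRF3 and IRF7, secretion of type I interferon and, through its receptor, transcription of several of the sensors themselves, so that Ddx58, Ifih1, Dhx58, Zbp1 and Irf7 are also known as interferon-induced genes.

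The libraries came from mouse bone marrow mesenchymal stem and progenitor cells on a C57BL/6 background, 3 in each of 6 groups, in a study of POT1a, a telomere-binding protein. For the cultured groups, marrow cells of mice aged 4 to 6 months were first cultured. CD51+/PDGFRα+ cells were then sorted from them and cultured further before Cre. The mice carried a flox-stop-flox tdTomato reporter and either Pot1a flox/flox (labelled Δ/Δ after deletion) or wild-type Pot1a (labelled wt/wt). All cells were exposed to Cre recombinase vesicles at 10 μL per well for 12 h. They were re-sorted by tdTomato fluorescence after a further 48 h. RNA was taken at week 1 and week 4, which gave the groups week 1 Δ/Δ, week 1 wt/wt, week 4 Δ/Δ and week 4 wt/wt. For the sorted groups, tdTomato+ cells were isolated without culture from NG2-cre/loxp-tdTomato mice aged 2 weeks, titled Δ/Δ and wt/Δ. In these mice Cre was driven by NG2, the controls carried 1 deletable allele and no group was free of Cre, and the genotype field of the labels reads fl/fl for all 6 libraries, so that groups follow the titles. The labels do not tie a library to a mouse or culture, so p-values measure the spread between these libraries.

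Library totals ran from 12807832 to 90717232 counts in the 12 cultured libraries and from 28918757 to 49992698 in the 6 sorted ones. Values are given as CPM, that is counts scaled to a common library size with TMM factors. Pot1a itself was 31.1, 37.9 and 34.6 CPM in week 1 libraries labelled Δ/Δ against 34.3, 33.8 and 36.6 CPM in wt/wt, 47.9, 46.3 and 42.8 CPM in week 4 libraries labelled Δ/Δ against 37.8, 33.7 and 33.2 CPM in wt/wt, and 30.8, 19.1 and 31.0 CPM in sorted libraries labelled Δ/Δ against 26.9, 30.0 and 34.3 CPM in wt/Δ. The gene-level count was thus not lower in any group labelled Δ/Δ beyond the spread, and at week 4 it was higher in every one of them (log2 difference 0.39, edgeR quasi-likelihood test with Benjamini-Hochberg adjustment, adjusted p = 0.0298). Counts over the whole gene do not show which exons were lost, so the labels could not be checked in this way. The paper itself reports a deletion band and lower Pot1a mRNA by qPCR in cultured cells, and lower Pot1a expression in sorted tdTomato+ cells. Mesenchymal markers were abundant in every library (10 genes summed to 9056 to 41429 CPM). The 5 general leukocyte markers summed to 0.387 to 1.93 CPM in the cultured libraries, whereas they summed to 505 to 591 CPM in sorted libraries labelled Δ/Δ and to 428 to 780 CPM in wt/Δ. The 9 macrophage and monocyte markers summed to 9.70 to 12.2 CPM in cultured libraries of week 1 and to 18.5 to 25.6 CPM in those of week 4, where Lyz2 averaged 16.2 CPM in Δ/Δ and 13.7 CPM in wt/wt, and C1qa and Fcgr1 were at 0 in all 12.

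Within groups, 2 cultured libraries stood apart in the genes that interferon induces. A set of 12 such genes summed to 36.1, 36.9 and 37.1 CPM in week 1 libraries labelled Δ/Δ, against 168, 79.7 and 430 CPM in wt/wt. At week 4 the sums were 677, 92.7 and 359 CPM in libraries labelled Δ/Δ, against 57.2, 46.6 and 57.7 CPM in wt/wt. Library 3 of week 1 wt/wt was thus high and library 2 of week 4 Δ/Δ was low for its group, and the results below are given with and without them where a value moved.

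Regulatory sequence was looked at first, because the sensors that respond to interferon can carry the interferon-stimulated response element, to which transcription factors activated by interferon bind. RefSeq windows of 300 bases (250 before and 50 after the start of the gene, build GRCm38.p6) were found for 7 of the 10 genes and not used for Dhx58, Zbp1 and Tmem173. The motif GAAANNGAAA was searched on both strands, that is also as TTTCNNTTTC. It was present in the windows of Ddx58 and Ifih1 and in 3.44% of all 32851 windows. In both genes it lay just after the start, in Ddx58 at bases 3 to 12 on the strand opposite to the gene (chr4:40239804-40239833, minus strand, shown as 30 bases) and in Ifih1 at bases 33 to 42 on the strand of the gene (chr2:62646206-62646235, minus strand). The match is in capitals.
Ddx58 motif: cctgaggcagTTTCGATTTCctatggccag
Ifih1 motif: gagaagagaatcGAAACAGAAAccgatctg

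The 250 bases before the start are shown for these genes and, as a member called in no comparison of genotypes, for Mavs, with each GAAA or TTTC, the repeated unit of the motif, in capitals. There were 7 such units before Ddx58 (chr4:40239826-40240075, minus strand), 5 before Ifih1 (chr2:62646256-62646505, minus strand) and 0 before Mavs (chr2:131233813-131234062, plus strand), against a median of 2 over all windows, of which 16.8% held at least 5. The other members had 7 (Tlr3), 4 (Mb21d1), 4 (Irf3) and 1 (Irf7). Like Mavs, Tlr3, Mb21d1 and Irf3 were called in no comparison of genotypes, while Irf7 was called at week 4. The number of units thus did not separate called from uncalled members. A match is a description of these letters and not evidence of binding.
Ddx58 upstream: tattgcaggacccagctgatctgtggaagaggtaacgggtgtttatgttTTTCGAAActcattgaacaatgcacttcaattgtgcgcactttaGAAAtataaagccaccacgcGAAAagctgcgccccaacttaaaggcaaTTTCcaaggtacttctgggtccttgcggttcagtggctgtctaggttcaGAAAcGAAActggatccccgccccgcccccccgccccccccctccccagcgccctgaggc
Ifih1 upstream: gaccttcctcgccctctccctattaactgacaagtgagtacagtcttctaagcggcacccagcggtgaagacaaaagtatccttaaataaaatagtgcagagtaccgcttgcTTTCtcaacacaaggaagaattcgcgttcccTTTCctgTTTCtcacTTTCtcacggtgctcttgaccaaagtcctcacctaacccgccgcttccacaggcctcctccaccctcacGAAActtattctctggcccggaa
Mavs upstream: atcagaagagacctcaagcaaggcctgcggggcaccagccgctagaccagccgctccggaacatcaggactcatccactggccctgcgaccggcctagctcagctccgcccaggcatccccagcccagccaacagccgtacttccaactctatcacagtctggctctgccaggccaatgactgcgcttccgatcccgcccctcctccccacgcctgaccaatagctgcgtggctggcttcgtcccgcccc

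Levels of the 10 genes were compared with each other per kilobase of annotated exon. In the cultured groups Mavs was the highest, at 21.1 CPM per kilobase in week 1 Δ/Δ, 19.8 in week 1 wt/wt, 23.0 in week 4 Δ/Δ and 25.8 in week 4 wt/wt, and in each it did not overlap the next gene. STING came next in 3 of these groups, with 13.6 CPM per kilobase in week 1 Δ/Δ, 14.7 in week 1 wt/wt and 14.7 in week 4 Δ/Δ. In the sorted groups the order of these genes was reversed, with Tmem173 at 25.4 CPM per kilobase in Δ/Δ and 24.0 in wt/Δ, and Mavs at 15.6 and 13.5. The cultured and sorted tables were scaled separately, so levels are ordered within a group only. The DNA sensor gene Mb21d1 was among the lowest, at 0.652 CPM per kilobase in week 4 Δ/Δ and 0.781 in week 4 wt/wt. Zbp1 was the lowest of all in week 1 Δ/Δ (0.133), week 1 wt/wt (0.622) and week 4 wt/wt (0.179). Neighbours in the order were mostly separate in week 1 Δ/Δ and mostly overlapped in week 1 wt/wt and week 4 Δ/Δ. In week 4 Δ/Δ Tmem173, Irf7, Ddx58, Irf3, Dhx58 and Tlr3 each overlapped their neighbours among these genes, with Irf7 and Dhx58 spread widely between the 3 libraries.

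**Figure D1:**
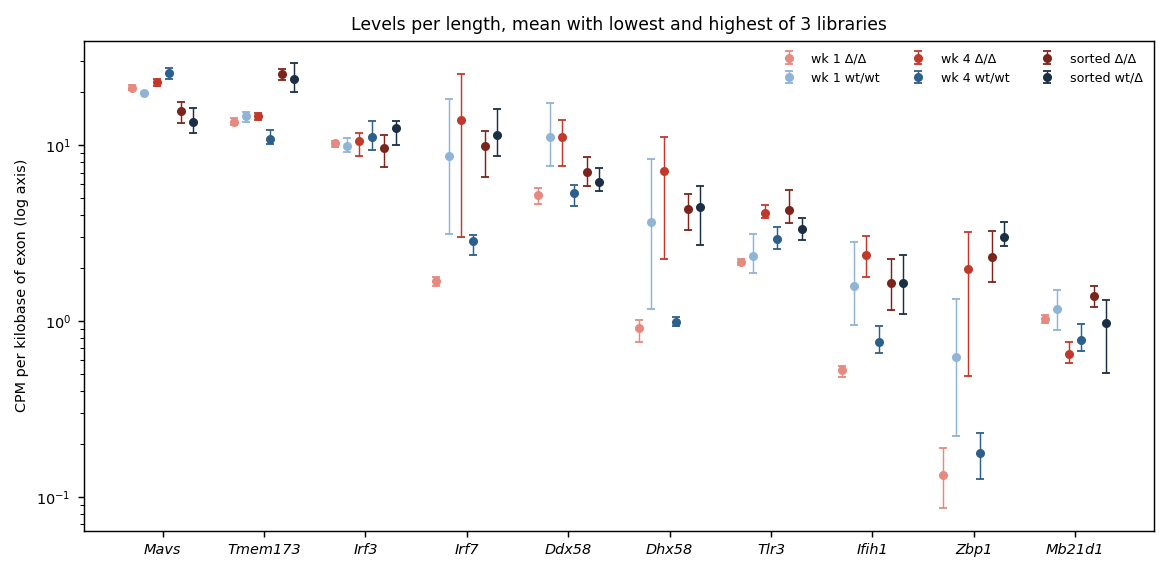
Level of each of the 10 genes in CPM per kilobase of exon (log axis) in the 6 groups, as the mean with the lowest and the highest of 3 libraries. Mavs, Tmem173 and Irf3 had narrow ranges within the cultured groups, while Irf7, Dhx58, Ifih1 and Zbp1 spread widely in week 1 wt/wt and week 4 Δ/Δ.

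The comparison at week 4 asked how sensor transcripts differed 4 weeks after Cre. Ddx58, Ifih1, Dhx58, Zbp1, Tmem173 and Irf7 were higher in libraries labelled Δ/Δ: 6 of the 10 genes passed the edgeR quasi-likelihood test (Benjamini-Hochberg adjusted p under 0.05) in that direction and 0 in the other, against 9.20% of all 13169 genes tested that were called higher and 6.46% called lower. The median log2 difference was 0.77 over the 10 genes and 0.00 over all genes tested. The 10 genes were chosen with earlier results known and most of those called vary together, so these shares are descriptions. In bulk RNA, more cells with a transcript and more transcript per cell cannot be told apart.

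Among the RNA sensors, Ddx58 was 97.8, 53.6 and 83.5 CPM in week 4 libraries labelled Δ/Δ, against 31.8, 42.0 and 39.7 CPM in wt/wt. The groups did not overlap, although library 2 of Δ/Δ was the lowest of its group. The difference was 1.05 on the log2 scale (SE 0.30, 2.07-fold, edgeR adjusted p = 0.0301). Ifih1 was 25.0, 14.6 and 19.0 CPM in Δ/Δ, against 5.38, 5.52 and 7.66 CPM in wt/wt. Every Δ/Δ library was above every wt/wt library, and the log2 difference was 1.65 (SE 0.38, 3.14-fold, edgeR adjusted p = 0.00961). Dhx58, the regulator of both, was 36.6, 7.36 and 26.0 CPM in Δ/Δ, against 3.06, 3.14 and 3.47 CPM in wt/wt. The wt/wt libraries lay close together and those labelled Δ/Δ spanned a wide range above them, with a log2 difference of 2.85 (SE 0.72, 7.22-fold, edgeR adjusted p = 0.0167). Tlr3 was 23.7, 20.2 and 20.3 CPM in Δ/Δ, against 14.6, 13.3 and 17.9 CPM in wt/wt. Its groups did not overlap either, but the log2 difference of 0.48 (SE 0.18) did not pass the test (edgeR adjusted p = 0.104).

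Zbp1 had the largest ratio of the 10 genes at week 4. It was 11.4, 1.73 and 7.92 CPM (324, 35 and 731 counts) in libraries labelled Δ/Δ, against 0.448, 0.628 and 0.816 CPM (6, 14 and 23 counts) in wt/wt. All Δ/Δ libraries were above all wt/wt libraries, and the log2 difference was 3.42 (SE 0.76, 10.7-fold, 95% interval 3.42 to 33.7, edgeR adjusted p = 0.00781). The low counts in wt/wt widen this interval.

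On the DNA side, the sensor was not called and its partner was. Mb21d1 was 3.13, 2.57 and 2.37 CPM in libraries labelled Δ/Δ, against 2.91, 2.78 and 3.97 CPM in wt/wt, with overlapping groups and a log2 difference of -0.28 (95% interval -0.77 to 0.20, edgeR adjusted p = 0.479). Tmem173 was 41.8, 38.3 and 40.4 CPM in Δ/Δ, against 33.6, 28.4 and 27.9 CPM in wt/wt. The groups were tight and separate, and the log2 difference was 0.43 (SE 0.11, 1.34-fold, edgeR adjusted p = 0.0178). Mavs and Irf3, which serve the sensors constitutively, were not called. Mavs was 77.9, 72.6 and 80.3 CPM in Δ/Δ, against 92.5, 87.5 and 79.2 CPM in wt/wt (log2 difference -0.17, 95% interval -0.37 to 0.03, edgeR adjusted p = 0.279). Irf3 was 40.7, 30.1 and 39.0 CPM in Δ/Δ, against 47.2, 35.3 and 32.2 CPM in wt/wt (-0.06, 95% interval -0.40 to 0.29, edgeR adjusted p = 0.877). Irf7, the inducible partner of Irf3, was 95.4, 11.4 and 51.2 CPM in Δ/Δ, against 11.7, 8.97 and 11.5 CPM in wt/wt. It was called higher (log2 difference 2.30, SE 0.70, 4.92-fold, edgeR adjusted p = 0.0441), yet its groups overlapped, since library 2 of Δ/Δ lay below libraries 1 and 3 of wt/wt. In all, 6 members had groups that did not overlap with Δ/Δ higher (Tlr3 in place of Irf7), against 15.5% of all genes tested. The exact permutation test of 3 against 3 libraries cannot go below p = 0.1.

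Several of these calls were lost with 1 library fewer, in most cases with a difference of about the same size. Ifih1 and Zbp1 passed whichever of the 6 libraries was left out. They were the only members that passed without library 1 of Δ/Δ, without library 2 of wt/wt or without library 3 of wt/wt, which left 2 of the 10 called. Without library 3 of Δ/Δ 3 were called (with Dhx58), without library 1 of wt/wt 4 (with Dhx58 and Tmem173), and without library 2 of Δ/Δ all 6. Where a call was lost the log2 difference was 0.85 to 1.12 for Ddx58, 2.37 to 2.90 for Dhx58 and 0.37 to 0.42 for Tmem173. Irf7 moved most, to 1.55 without library 1 of Δ/Δ (adjusted p = 0.169), and was 2.17 to 2.36 in its other lost calls. Without library 2 of Δ/Δ, which stood apart, the log2 differences were 1.24 for Ddx58, 1.80 for Ifih1, 3.25 for Dhx58, 3.84 for Zbp1, 0.44 for Tmem173 and 2.75 for Irf7. In a fit of only these 6 libraries 4 were called, and Tmem173 (0.40) and Irf7 (2.27) did not pass. Library 1 of Δ/Δ and library 1 of wt/wt were also alike in Xist (11.1 and 10.7 CPM, against 20.6 to 28.2 CPM in the other week 4 libraries), and its part in the result was not tested. Markers of plasmacytoid dendritic cells, a professional source of interferon, summed to 95.3 to 147 CPM in Δ/Δ and 54.0 to 106 CPM in wt/wt over 5 genes, 1 of which is the interferon-induced Bst2, and their defining gene Siglech was at 0 in every cultured library. Nearly all of these sums was Bst2 (mean 63.9 CPM in Δ/Δ and 19.6 CPM in wt/wt) and Runx2 (62.0 and 65.8 CPM). Ccr9 and Cox6a2 averaged at most 0.445 CPM in these groups.

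**Figure D2:**
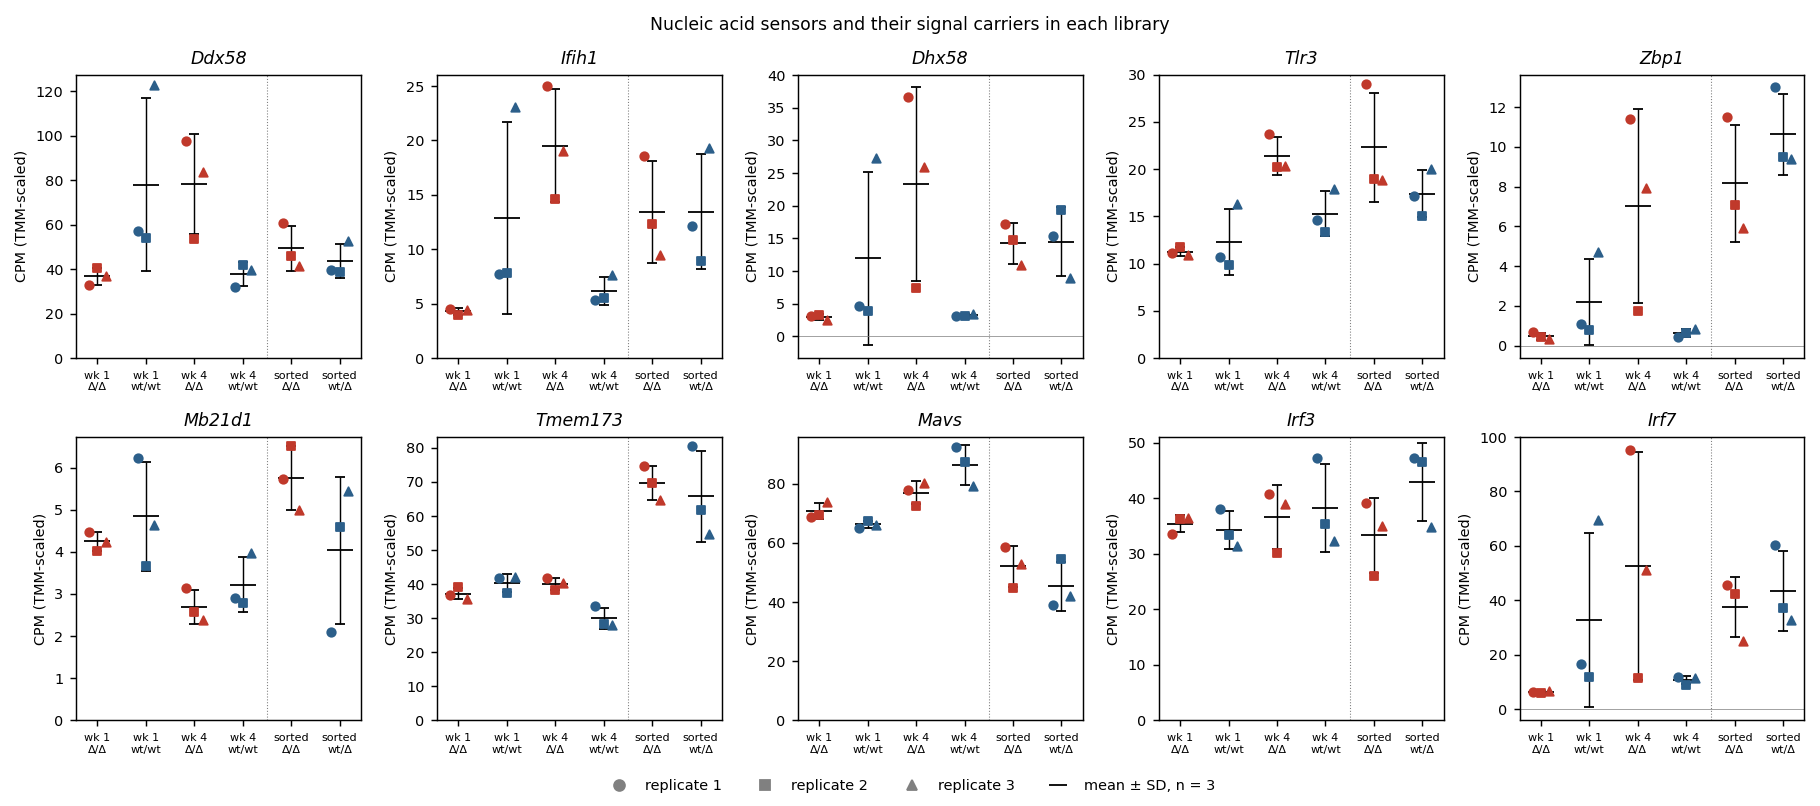
TMM-scaled CPM of the 10 genes in each of the 18 libraries, with Δ/Δ in red and wt/wt or wt/Δ in blue, marker shapes for replicate numbers and bars for the mean ± SD of 3 libraries. Cultured and sorted libraries, divided by the dotted line, were scaled separately. Library 3 of week 1 wt/wt and libraries 1 and 3 of week 4 Δ/Δ were high for Ddx58, Ifih1, Dhx58, Zbp1 and Irf7, while Mavs and Irf3 varied less between libraries.

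At week 1 the same inducible genes lay in the opposite direction, without passing the test. By the edgeR quasi-likelihood test 0 of the 10 genes had an adjusted p under 0.05 in either direction, against 1.02% of genes tested. At an unadjusted p under 0.05, 5 were lower (4.76% of genes tested), and these 5 had groups that did not overlap (10.8% of genes tested), while DESeq2 called 2, Ddx58 and Ifih1. Ddx58 was 32.9, 40.6 and 37.1 CPM in week 1 libraries labelled Δ/Δ, against 57.2, 54.0 and 123 CPM in wt/wt (log2 difference -1.08, SE 0.30, edgeR adjusted p = 0.116). Ifih1 was 4.54, 3.92 and 4.41 CPM in Δ/Δ, against 7.74, 7.80 and 23.1 CPM in wt/wt (-1.58, SE 0.39, edgeR adjusted p = 0.0790). For both, the Δ/Δ libraries were alike and library 3 of wt/wt was far above the other two. Dhx58 was 3.21, 3.32 and 2.49 CPM in Δ/Δ, against 4.71, 3.86 and 27.3 CPM in wt/wt (-2.00, SE 0.72, edgeR adjusted p = 0.254). Zbp1 was 0.665, 0.442 and 0.304 CPM (11, 8 and 10 counts) in Δ/Δ, against 1.10, 0.780 and 4.71 CPM (37, 20 and 123 counts) in wt/wt (-2.29, SE 0.85, edgeR adjusted p = 0.272). Irf7 was 6.41, 5.97 and 6.72 CPM in Δ/Δ, against 16.5, 11.9 and 69.6 CPM in wt/wt (-2.35, SE 0.72, edgeR adjusted p = 0.162). In each of these genes the lowest wt/wt library was above the highest Δ/Δ library.

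Library 3 of week 1 wt/wt had the highest value of all 5 genes. Without it the log2 differences at week 1 were -0.59 for Ddx58, -0.86 for Ifih1, -0.53 for Dhx58, -1.09 for Zbp1 and -1.16 for Irf7, still lower in Δ/Δ. Ifih1 passed the edgeR test when library 1 of wt/wt was left out (-1.85, adjusted p = 0.0407), and also when genes of low count were kept in the fit (-1.57, adjusted p = 0.0330). The remaining members were close to level at week 1. Tlr3 was 11.1, 11.8 and 10.9 CPM in Δ/Δ, against 10.7, 9.83 and 16.3 CPM in wt/wt. Tmem173 was 36.9, 39.1 and 35.7 CPM in Δ/Δ, against 41.7, 37.3 and 42.2 CPM in wt/wt. Both pairs of groups overlapped. The cGAS gene Mb21d1 was 4.48, 4.03 and 4.23 CPM in Δ/Δ, against 6.22, 3.67 and 4.63 CPM in wt/wt, and Irf3 was 33.6, 36.2 and 36.5 CPM in Δ/Δ, against 38.0, 33.3 and 31.4 CPM in wt/wt. Mavs was 68.8, 69.4 and 73.8 CPM in Δ/Δ, against 65.1, 67.5 and 66.1 CPM in wt/wt, which did not overlap (11.8% of genes tested were so, and higher) but differed by 0.09 on the log2 scale (95% interval -0.11 to 0.29).

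**Figure D3:**
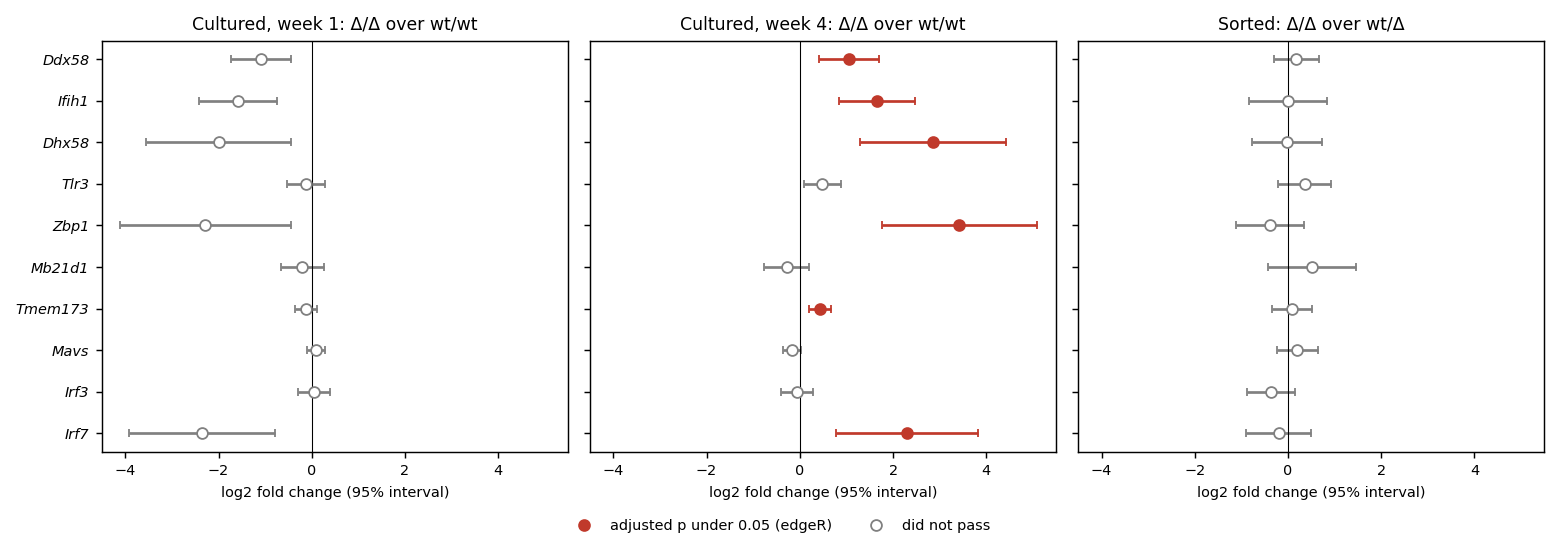
Log2 fold change with its 95% interval for the 10 genes in cultured cells at week 1, in cultured cells at week 4 (each Δ/Δ over wt/wt) and in sorted cells (Δ/Δ over wt/Δ). Filled points passed the edgeR test at an adjusted p under 0.05: 0 at week 1, 6 at week 4 and 0 in sorted cells.

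The difference between the weeks was itself tested as the genotype difference at week 4 minus that at week 1. Of the 10 genes 5 had a higher genotype difference at week 4, against 4.08% of genes tested in that direction. They were Ddx58 (2.13 on the log2 scale, SE 0.42, edgeR adjusted p = 0.00731), Ifih1 (3.23, SE 0.54, adjusted p = 0.00279), Dhx58 (4.86, SE 1.02, adjusted p = 0.0106), Zbp1 (5.71, SE 1.13, adjusted p = 0.00753) and Irf7 (4.65, SE 1.01, adjusted p = 0.0130). These 5 passed with any of the 12 libraries left out. Without library 3 of week 1 wt/wt the values were 1.64 for Ddx58, 2.51 for Ifih1, 3.38 for Dhx58, 4.52 for Zbp1 and 3.45 for Irf7. Without library 1 of week 4 Δ/Δ Irf7 was 3.90. Without both libraries that stood apart the values for the 5 genes in the same order were 1.85, 2.67, 3.80, 4.96 and 3.93. Those libraries were picked after seeing interferon-induced genes that vary with these 5 members, so that fit is not an independent check. Tmem173 did not pass (0.54, SE 0.15, edgeR adjusted p = 0.0530), but did without library 1 of week 4 wt/wt (0.63, adjusted p = 0.0153) and by DESeq2 (0.54, adjusted p = 0.0124). Tlr3 (0.61), Mavs (-0.26), Irf3 (-0.11) and Mb21d1 (-0.09) did not pass.

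Over time in libraries labelled Δ/Δ, week 4 was set against week 1. There 6 genes were higher at week 4 (18.8% of genes tested) and 1 was lower (16.3%). By the edgeR test the log2 differences were 1.09 for Ddx58 (adjusted p = 0.0130), 2.19 for Ifih1 (adjusted p = 9.31e-04), 2.98 for Dhx58 (adjusted p = 0.00693), 0.93 for Tlr3 (adjusted p = 0.00212), 3.99 for Zbp1 (adjusted p = 0.00215) and 3.05 for Irf7 (adjusted p = 0.00637), and for each every week 4 library lay above every week 1 library (25.9% of genes tested). The 6 calls held with any of the 6 libraries left out. For Irf7 the difference was 2.32 without library 1 of week 4 and 3.52 without library 2, and without library 2 Dhx58 was 3.39 and Zbp1 4.43. Mb21d1 was the member that fell, to 3.13, 2.57 and 2.37 CPM at week 4, against 4.48, 4.03 and 4.23 CPM at week 1 (log2 difference -0.66, SE 0.22, edgeR adjusted p = 0.0332). Its groups did not overlap (25.3% of genes tested were so, and lower), but the call was lost when any of 5 of the 6 libraries was left out, the exception being library 1 of week 4. The log2 difference in those fits was -0.57 to -0.70. Tmem173, Mavs and Irf3 differed by 0.11, 0.12 and 0.05 and were not called.

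In wt/wt libraries over the same interval, 3 genes were lower at week 4 (16.1% of genes tested) and 1 was higher (17.9%). Mavs was higher, at 92.5, 87.5 and 79.2 CPM at week 4, against 65.1, 67.5 and 66.1 CPM at week 1 (log2 difference 0.38, SE 0.09, edgeR adjusted p = 0.00648). Tmem173 was lower, at 33.6, 28.4 and 27.9 CPM at week 4, against 41.7, 37.3 and 42.2 CPM at week 1 (-0.43, SE 0.11, edgeR adjusted p = 0.00840). Neither pair of groups overlapped (22.5% of genes tested were separate and higher, 21.3% separate and lower), and both calls held with any of the 6 libraries left out, while in a fit of only these libraries Tmem173 did not pass (adjusted p = 0.0559). Ddx58 (-1.04, edgeR adjusted p = 0.0165) and Ifih1 (-1.04, edgeR adjusted p = 0.0498) were also lower at week 4. Ifih1 no longer passed when any 1 of the 3 week 4 libraries was left out, or in a fit of only these 6 libraries (adjusted p = 0.114), with log2 differences of -0.96, -0.95, -1.23 and -1.05. Without library 3 of week 1 the differences were -0.56 for Ddx58 and -0.32 for Ifih1 and neither passed, while Tlr3 was then called higher (0.58, edgeR adjusted p = 0.0194). Without library 1 or library 2 of week 1, Dhx58 was called lower as well, with a log2 difference of -2.27 in each case, against -1.88 with all libraries and -0.41 without library 3. Mb21d1 (-0.58) was not called, but was called lower without library 2 of week 1 or library 3 of week 4. Irf7 (-1.60, adjusted p = 0.0945) had groups that did not overlap, with week 4 lower, and was not called. Zbp1 (-1.72, adjusted p = 0.116), Tlr3 (0.32) and Irf3 (0.16) had overlapping groups and were not called. Without library 3 of week 1 the differences were -0.41 for Irf7 and -0.53 for Zbp1. The comparisons over time and between genotypes share libraries and are not independent of one another.

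The library-to-library pattern was shared. Over the 12 cultured libraries, Pearson correlations of log2 CPM between Ddx58, Ifih1, Dhx58, Zbp1 and Irf7 ran from 0.90 (Ddx58 with Zbp1) to 0.98 (Dhx58 with Zbp1). These are descriptions, since the points share the same libraries and group differences. Among the genes most like Irf7 of all genes tested were Isg15 (0.981), Ifi44 (0.972), Irf9 (0.967) and Lgals3bp (0.965). Those most like Ddx58 were Ifi44 (0.976), Zc3hav1 (0.961), Oasl2 (0.950), Lgals3bp (0.949) and Samd9l (0.949). Tmem173 had other neighbours, namely Dapp1 (0.946), Mab21l2 (0.945), Rab32 (0.935), Runx1t1 (0.930) and Nxpe4 (0.926). Its own correlations with Ddx58, Ifih1, Dhx58, Zbp1 and Irf7 ran from 0.50 (Ifih1) to 0.63 (Ddx58). Those of Tlr3 with the same genes ran from 0.53 (Ddx58) to 0.77 (Ifih1).

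**Figure D4:**
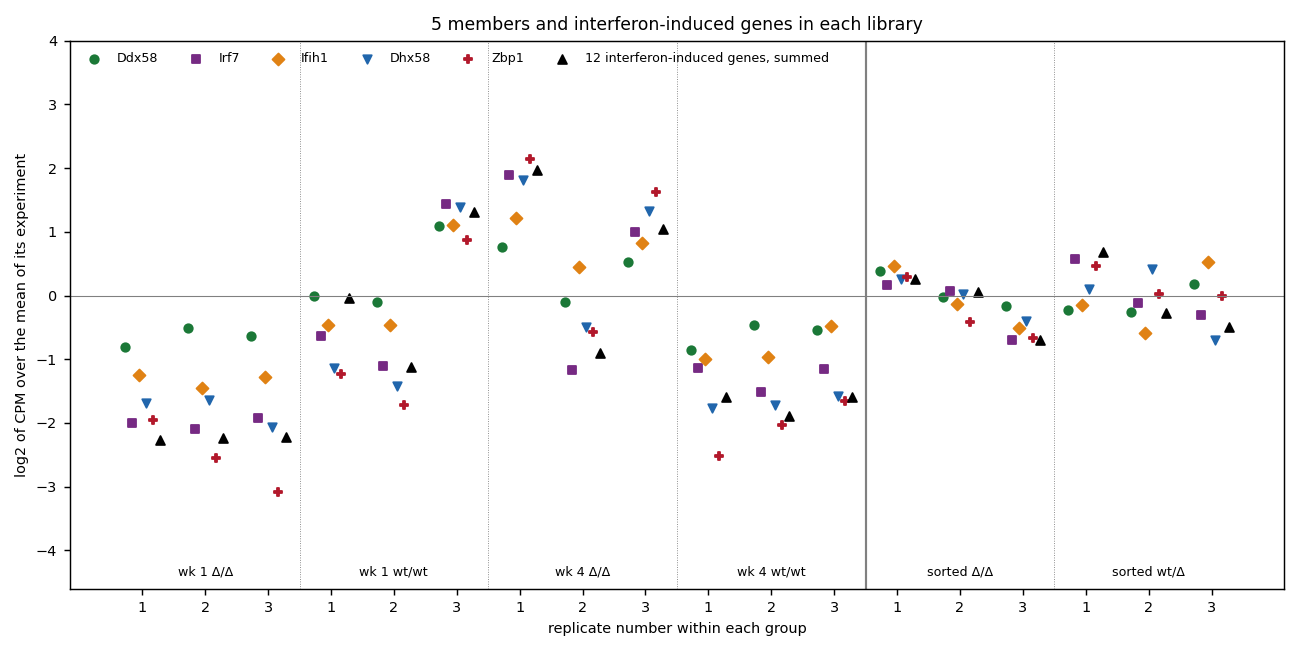
Log2 of CPM over the mean of the 12 cultured or of the 6 sorted libraries, for Ddx58, Irf7, Ifih1, Dhx58 and Zbp1 and for the sum of 12 interferon-induced genes, in each library. The 6 quantities were low together in week 1 Δ/Δ and week 4 wt/wt and high together in library 3 of week 1 wt/wt and libraries 1 and 3 of week 4 Δ/Δ.

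Other genes of these pathways were taken from lists and described by counts. Values in brackets are the mean CPM of 3 week 4 libraries labelled Δ/Δ against that of 3 labelled wt/wt, then the log2 difference, and the counts stand beside the 9.20% of all genes tested that were called higher and the 6.46% called lower. Of 12 interferon-induced genes 10 were testable in culture, and 9 were higher in libraries labelled Δ/Δ at week 4, such as Usp18, a brake on interferon receptor signalling (47.4 against 1.41 CPM, log2 difference 5.17), and Ifit1, a sensor of viral RNA ends (84.4 against 5.31 CPM, 4.02). At week 1, 1 of the 10 was lower, Bst2. Cofactors and regulators of the RIG-I-like receptors gave 3 higher of 18 at week 4, namely Ddx60, a helicase that promotes RIG-I signalling (10.1 against 1.01 CPM, log2 difference 3.36), Rnf125, a ubiquitin ligase that targets RIG-I for degradation (32.3 against 13.2 CPM, 1.30), and Zc3hav1, the zinc-finger antiviral protein (25.5 against 13.7 CPM, 0.90). Of 6 testable endosomal Toll-like receptors and partners 1 was higher, Tlr8 (2.39 against 0.414 CPM, log2 difference 2.52). Of 17 genes of cytosolic DNA sensing and STING regulation 0 were called at week 4.

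The same values are given for the signalling genes. Among 14 adaptors, kinases and interferon regulatory factors, Irf5 (10.5 against 5.15 CPM, log2 difference 1.06), Irf1 (60.5 against 35.2 CPM, 0.78) and Irf2 (15.0 against 9.85 CPM, 0.60) were higher at week 4 in libraries labelled Δ/Δ, and Ikbkg, the regulatory subunit NEMO of the IKK complex, was lower (148 against 214 CPM, -0.53). Among 12 interferon receptor and JAK-STAT genes, Stat2 (77.6 against 34.5 CPM, log2 difference 1.17) and Ifngr1 (554 against 313 CPM, 0.82) were higher and Jak2 was lower (184 against 356 CPM, -0.95). Samhd1, which degrades deoxynucleotides, was the 1 gene called of 9 that remove or edit self nucleic acid (417 against 192 CPM, 1.12), and 0 of 5 partners of ZBP1 in cell death were called. At week 1, 0 genes of these other lists were called.

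The ligands themselves were close to undetected. The tables hold 20 type I and type III interferon genes, of which 0 were testable. Ifnb1, the first interferon made downstream of these sensors in fibroblasts, had 1 count among 139047246 in the week 4 libraries labelled Δ/Δ, and 0 among 64045373 in wt/wt, which allows up to 0.0468 CPM at 3 counts over the group. At week 1 it had 0 counts in Δ/Δ (up to 0.0441 CPM) and 0 in wt/wt (up to 0.0350 CPM), and in the sorted groups 0 in each (up to 0.0245 CPM). Such limits cover counting error only. Ifnz had 72 counts over 11 of the 12 cultured libraries. Of these, 48 were in week 4 Δ/Δ and 7 in week 4 wt/wt (mean 0.309 against 0.115 CPM, with overlapping groups). Week 1 Δ/Δ held 8 and week 1 wt/wt 9, and these differences were not tested. In the sorted libraries Ifne had 34 counts, Ifnk 6, Ifnz 6 and Ifna16 5.

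In freshly sorted cells the question was whether sensor transcripts differed between Δ/Δ and wt/Δ without culture. By the edgeR quasi-likelihood test 0 of the 10 genes and 0% of the 14605 genes tested had an adjusted p under 0.05, and at an unadjusted p under 0.05 there were 0 of the 10 and 12.3% of all genes. DESeq2 called 399 genes and 0 of the 10. Groups overlapped for all 10 genes, where 9.40% of genes tested were separate with Δ/Δ higher and 11.1% with Δ/Δ lower. The median log2 difference was 0.04 over the members and -0.01 over all genes tested.

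Ddx58 was 60.8, 45.9 and 41.4 CPM in sorted libraries labelled Δ/Δ, against 39.7, 38.7 and 52.7 CPM in wt/Δ, and the 95% interval of the log2 difference was -0.31 to 0.66. Ifih1 was 18.6, 12.3 and 9.46 CPM in Δ/Δ, against 12.1, 8.96 and 19.3 CPM in wt/Δ (interval -0.83 to 0.83), and Dhx58 was 17.2, 14.7 and 10.9 CPM in Δ/Δ, against 15.4, 19.3 and 8.88 CPM in wt/Δ (-0.78 to 0.72). For Zbp1 the values were 11.5, 7.08 and 5.92 CPM in Δ/Δ, against 13.0, 9.51 and 9.38 CPM in wt/Δ (-1.11 to 0.35), and for Irf7 45.5, 42.4 and 25.1 CPM in Δ/Δ, against 60.3, 37.2 and 32.7 CPM in wt/Δ (-0.91 to 0.50). These intervals lie below the week 4 point estimates of the same 5 genes in culture. Against the week 4 intervals, that of Ddx58 overlapped (0.40 to 1.69 in culture) and that of Ifih1 met at its edge (0.83 to 2.47 in culture). The experiments differ in age, Cre, culture and control, which was wt/Δ in sorted and wt/wt in cultured cells. The difference between them was not tested. Tlr3 was 29.0, 19.0 and 18.9 CPM in Δ/Δ, against 17.2, 15.0 and 20.0 CPM in wt/Δ (-0.21 to 0.93).

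For the DNA route in sorted cells, Mb21d1 was 5.73, 6.51 and 4.99 CPM in libraries labelled Δ/Δ, against 2.09, 4.58 and 5.44 CPM in wt/Δ (95% interval of the log2 difference -0.43 to 1.45). Tmem173 was 74.7, 69.7 and 64.6 CPM in Δ/Δ, against 80.6, 61.9 and 54.8 CPM in wt/Δ (-0.34 to 0.51). Mavs was 58.7, 44.9 and 52.7 CPM in Δ/Δ, against 39.1, 54.5 and 42.2 CPM in wt/Δ (-0.24 to 0.64), and Irf3 was 39.1, 25.9 and 35.0 CPM in Δ/Δ, against 47.3, 46.5 and 34.8 CPM in wt/Δ (-0.87 to 0.14). The sorted libraries held transcripts of other marrow cells, which also express sensors. Macrophage and monocyte markers (9 genes) summed to 1192 to 1884 CPM in Δ/Δ against 947 to 2293 CPM in wt/Δ. Megakaryocyte markers (6 genes) summed to 35.4 to 859 against 39.1 to 1630 CPM, and were highest in library 3 of Δ/Δ and library 2 of wt/Δ. Endothelial markers (6 genes) summed to 1908 to 1993 CPM in Δ/Δ against 1381 to 1495 CPM in wt/Δ, neutrophil markers (7 genes) to 2232 to 4075 against 2193 to 4341 CPM, and plasmacytoid dendritic cell markers (5 genes) to 120 to 156 against 99.0 to 254 CPM. Most of the last sum was Bst2 (mean 80.8 against 106 CPM) and Runx2 (54.9 against 62.2 CPM), which were also present in cultured libraries. Siglech averaged 1.99 CPM in Δ/Δ against 12.4 CPM in wt/Δ, Ccr9 0.774 against 3.40 CPM and Cox6a2 0.287 against 2.17 CPM. Xist, transcribed from the inactive X chromosome, was 24.4, 46.7 and 32.5 CPM in Δ/Δ, against 0, 30.5 and 0.0334 CPM in wt/Δ. The part of these differences in the sensor values was not tested.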

How the data were processed

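RNA was amplified with SMART-Seq v4 and made into Nextera XT libraries, which do not keep strand, and sequenced on an Illumina NextSeq. The authors mapped reads to mm10 with HISAT2 2.0.4, and the deposited raw counts per gene came from featureCounts 1.6.3, as their methods and processing notes state. No strand means that reads of overlapping genes cannot be told apart. Exons of Irf3 share 2.56% of their bases with Bcl2l12 and those of Irf7 share 1.19% with Phrf1 in GENCODE M21, and the other members share 0.

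Counts were tested with edgeR 4.0.16 in R 4.3.3 (filterByExpr with a minimum count of 10, TMM scaling, quasi-likelihood F-test, Benjamini-Hochberg adjustment, threshold 0.05). The 12 cultured libraries were fitted together and the 6 sorted ones separately. SE and 95% intervals come from the same fit. Simulated data were used to check its calls and fold changes at week 4 and in sorted cells, but not the SE or the intervals. DESeq2 1.42.0, other scalings and filters, a replicate block and leaving out each library were alternatives. Replicate numbers are not tied to mice in the labels. Deviations of same-numbered wt/wt libraries correlated across the weeks (0.152, 0.220 and 0.209), the only comparison in which every pair did so above 0.1. The largest single value was between the genotypes at week 4, where libraries 1 of Δ/Δ and wt/wt correlated at 0.636. Libraries 2 and 3 of that comparison gave 0.226 and -0.0835.

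All 10 members were named in every comparison, and from the other lists up to 4 genes past the test with the smallest adjusted p. One of the genes most like Irf7 is not reported here. The members and lists were chosen with earlier results of these data known.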

Additional observations from a re-analysis of the deposited data

Results flagged for a closer look

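For 5 genes the difference between Δ/Δ and wt/wt libraries was not the same at both culture times, by the test of the difference itself in edgeR. On the log2 scale the genotype difference at week 4 minus that at week 1 was 4.86 for Dhx58, 3.23 for Ifih1, 5.71 for Zbp1, 2.13 for Ddx58 and 4.65 for Irf7. In each, every week 1 library labelled Δ/Δ was below every wt/wt library, and the group mean at week 4 was higher in Δ/Δ. Over 19 alternatives (18 for Zbp1) the adjusted p ran from 8.39e-05 to 0.0378 for Dhx58, from 3.16e-08 to 0.0108 for Ifih1, from 4.48e-05 to 0.0311 for Zbp1, from 1.22e-05 to 0.0218 for Ddx58 and from 2.67e-04 to 0.0407 for Irf7. Among these alternatives was the fit without both libraries that stood apart, chosen after seeing the data. That fit gave the lowest adjusted p for Dhx58 and Irf7. The sum of 12 interferon-induced genes moved with the 5 genes in the same libraries.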

How the results depend on the processing

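Scaling moved the median of all genes by at most 0.08 on the log2 scale. At week 1 the genes called were 134 as reported, 85 with at least 10 counts in every library, 453 by DESeq2, 237 with only the 6 libraries compared, 56 without both libraries that stood apart (an alternative chosen after seeing the data), and 49 to 181 with a replicate left out. The members called were 1 with no filter, 2 by DESeq2 and 0 to 1 with a replicate left out, the 1 being Ifih1 without wt/wt library 1 (adjusted p = 0.0407). At week 4 the genes called were 2062 as reported and 1267 with only the 6 libraries compared, and the members called were 2 to 6 with a replicate left out. In wt/wt over time 2 members were called with only the 6 libraries compared, against 4. In sorted cells 399 genes were called by DESeq2 and 0 to 4 with a replicate left out, the 4 being without wt/Δ library 2. The cause of these changes was not tested. With a replicate block the members called were 0 at week 1, 6 at week 4 and 5 for the difference between weeks. A block on replicate number within each genotype, added after seeing the data, was run for the comparisons over time only. It gave 4445 genes and the same 4 members in wt/wt, and changed no call of a member in either genotype.

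Directions that turned belonged to differences that were not called. Without both libraries that stood apart, week 1 Tlr3 was 0.14 and Irf3 -0.01, week 4 Irf3 was 0.07 and the difference between weeks for Irf3 was 0.07. In sorted cells Ifih1 was -0.01 with RLE scaling, -0.00 with at least 10 counts in every library and -0.01 by DESeq2, and Dhx58 was 0.06 with library size only and 0.02 with a replicate block. With a replicate left out, week 1 ranges were -0.26 to 0.14 for Tlr3, -0.37 to 0.03 for Mb21d1 and -0.01 to 0.13 for Irf3. Irf3 ranged from -0.18 to 0.12 at week 4, -0.22 to 0.07 between weeks, -0.02 to 0.27 over time in wt/wt and -0.02 to 0.17 over time in Δ/Δ, and Mb21d1 from -0.31 to 0.10 between weeks. In sorted cells the ranges were -0.00 to 0.33 for Ddx58, -0.31 to 0.36 for Ifih1, -0.28 to 0.23 for Dhx58, -0.03 to 0.25 for Tmem173 and -0.37 to 0.10 for Irf7. Depth limited Zbp1, with 6 to 37 counts in most wt/wt and week 1 libraries, which was not testable with at least 10 counts in every library.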
